A study of Bos taurus with 12 samples.

Results

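Translation initiation and elongation factors are the proteins that load ribosomes onto mRNAs, find the start codon and move the ribosome along the coding sequence. Their mRNAs were followed here in mammary gland biopsies of lactating Holstein cows before (CONT, day 0) and on day 6 of (REST) a feed restriction. The genes were chosen by name from the array: every gene whose symbol begins with EIF1 to EIF6 or with EEF1 or EEF2, except the EIF2AK kinases and the argonaute genes once called EIF2C. The rule did not use any measured value, and it found 51 genes with 140 probes among the 12787 genes with 43653 probes in all (27131 of these probes had a symbol). Of these, 47 genes with 128 probes were tested, because at least 1 probe was well above background on every array of 1 group or the other. The untested genes were EEF1A2, the elongation factor form of muscle and neurons, EIF1AY, which is Y-linked, EIF4E3 and EIF5A2. Their best probes were well above background on 0 CONT and 0 REST arrays for EEF1A2, on 0 and 1 for EIF1AY, on 3 and 4 for EIF4E3 and on 2 and 3 for EIF5A2.

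The 12 one-colour (Cy3) arrays held 6 CONT and 6 REST samples, and the animal names in the labels pair them, so that each of 6 cows gave 1 sample to each group (the series description counts 5 cows). The methods of the study exclude 1 Holstein cow for mastitis, and the sources used here do not say whether it is among these 6. In CONT the cows ate freely from a lactation ration, and in REST the feed covered 50% of the energy calculated as needed for lactation. All cows were multiparous and in mid-lactation per the methods of the study, which give no other treatment, and their age was not given in the sources used here. Every cow went from CONT to REST, so diet cannot be told apart from time, from the stage of lactation or from the earlier biopsy. The tissue matched its label: the milk protein genes CSN3 and LALBA and the epithelial genes KRT8, KRT18 and EPCAM were well above background on all 12 arrays. So were the leukocyte gene PTPRC, the endothelial gene PECAM1, the collagen gene COL1A1 and the smooth muscle actin gene ACTA2, which other cells of a whole biopsy express. The arrays of cows 5 and 6 shared slide 3 and were dimmer, with a 75th percentile of intensity of 73.2 to 117 against 252 to 390 on slides 1 and 2, and with 41.9% to 48.0% against 61.8% to 67.9% of spots well above background.

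Initiation begins when EIF2, loaded with GTP and the initiator tRNA, joins the small ribosomal subunit together with EIF1, EIF1A, EIF3 and EIF5. The EIF4 factors recognise the mRNA cap, unwind the leader and bring the mRNA to this complex, and EIF4EBP1 holds the cap-binding protein EIF4E back when the kinase mTOR is inactive. Phosphorylation of the EIF2 alpha subunit (EIF2S1) blocks its exchange factor EIF2B and lowers initiation. EEF1A then delivers each aminoacyl-tRNA, EEF1B recharges EEF1A with GTP, and EEF2 translocates the ribosome. Much of this control lies in phosphorylation of the proteins, which arrays do not measure. Synthesis of milk proteins makes the lactating mammary epithelium a tissue with a high rate of translation, and amino acids, insulin and mTOR are known regulators of it.

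Across the family most changes were small, as over all genes, and 1 subunit of the EIF3 complex, EIF3I, stood lowest. The mean signal was higher in REST for 34 of the 47 tested genes and lower for 13, with a median change of 0.057 (log2 units, REST minus CONT within a cow) against -0.009 over all 7932 tested genes. For 14 of the 47, leaving out 1 cow turned the sign of the mean. The changes ran from -0.635 for EIF3I to 0.427 for EIF4B, and 33 of 47 (70.2%) were smaller than 0.2 in size, against 62.9% of all tested genes. In limma with the cow as a block and an adjusted p under 0.1, 5 of 47 genes (10.6%) changed, whereas 16.2% of all tested genes did. EIF3M and EEF2KMT rose, 2 of 47, beside 6.95% of all genes, though EEF2KMT passed the background filter only through REST, where it was higher. EIF3I, EIF4E2 and EIF1AX fell, 3 of 47, beside 9.27% of all genes. In this fit the family was thus not called more often than the rest of the genes. In bulk tissue, fewer cells of a type and less RNA per cell cannot be told apart, and this holds for every change given here.

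The number of calls depended on the arrays and on the setting. Without the cow as a block, 2 of 47 genes, EIF3I and EIF4E2, passed the threshold, beside 4.41% of all genes. With normexp, which starts from the raw spot and local background intensities in place of the processed signal and adds an offset, 14 genes were called higher and 2 lower in place of 2 and 3, beside 11.1% of all genes called higher, so that the family's share of higher calls was then above that of all genes. Called members numbered 1 (EIF3I) without cow 2 or without cow 4, beside 5.62% and 6.42% of all genes, and 10 without cow 5, beside 17.1% of all genes. Without the dim slide 3, 7 members were called higher and 1 lower, beside 16.4% of all genes in either direction, and only EIF3I and EIF3M of the 5 genes remained among them (this alternative was chosen after seeing the data). The precision differed between genes, with standard errors of 0.074 to 0.178 and SDs of the 6 cow changes of 0.089 to 0.536, and the 95% interval of the change lay within 0.5 either way for 34 of 47 genes.

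**Figure D1:**
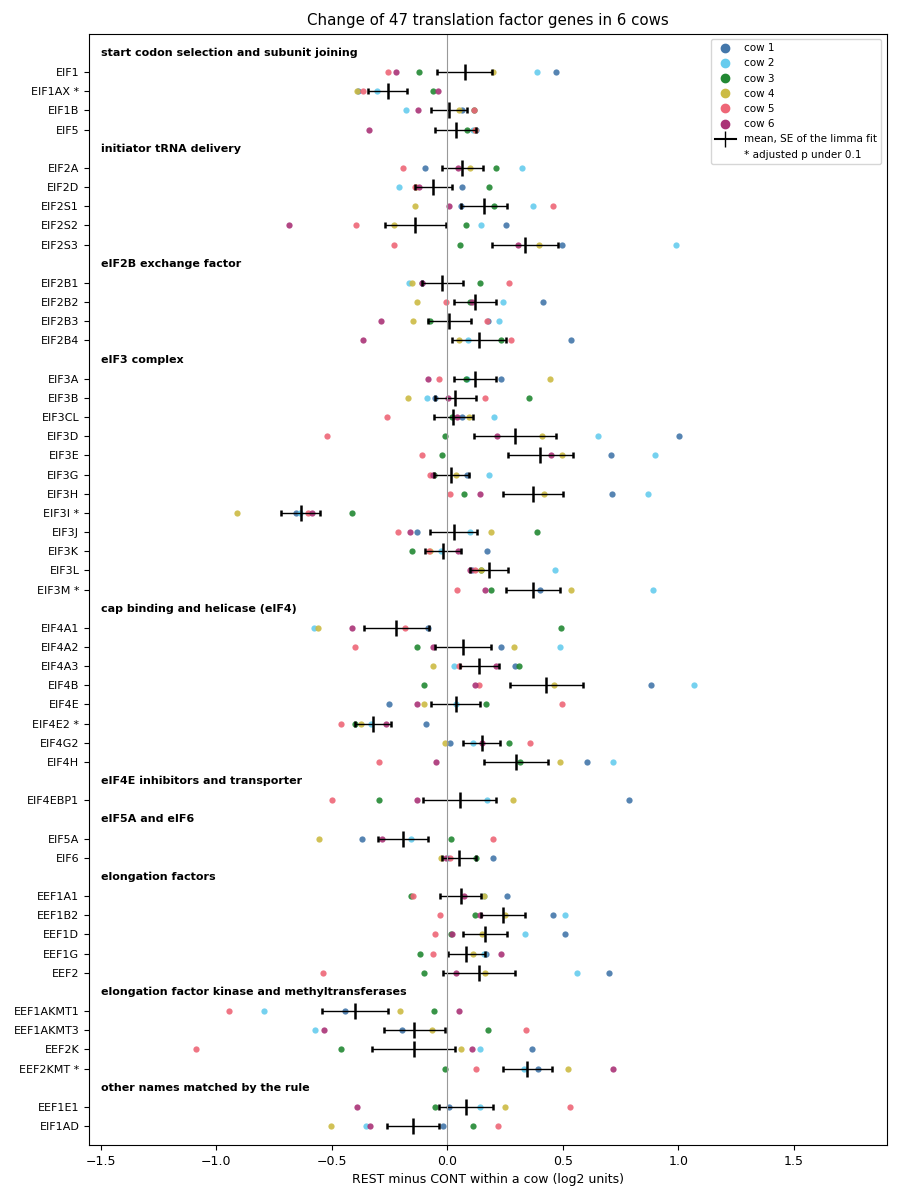
Change of each of the 47 tested genes, grouped by role. The horizontal axis is REST minus CONT in log2 units, coloured points are the 6 cows, and the black bar is the mean with the standard error of the limma fit; genes with an adjusted p under 0.1 carry a star. The 6 points of EIF3I lie between -0.909 and -0.414, and in each cow EIF3I lies below the other EIF3 subunits.

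EIF3I (NM_001015628) is the WD-repeat subunit of EIF3, the large scaffold that holds the small ribosomal subunit, the mRNA and the other initiation factors together. Its normalized signal, in log2 units above the 75th percentile of the array, was 5.20 to 5.56 in CONT (median 5.44) and 4.65 to 4.86 in REST (median 4.80). The highest REST array lay below the lowest CONT array, a separation found for 3 of the 47 members and for 2.28% of all tested genes. The mean change was -0.635 ± 0.084 (moderated SE of the limma fit, n = 6 cows), a 1.55-fold lower signal. The adjusted p was 0.00726 and the 95% interval ran from -0.826 to -0.443. It was lower in all 6 cows, and the mean change was -0.647 on slide 1, -0.662 on slide 2 and -0.595 on slide 3. A second probe of EIF3I, at a much dimmer signal, gave -0.564 with an adjusted p of 0.00891. The call held in all 20 alternatives computed, with adjusted p values from 0.000425 to 0.0651. Using the deposited table or keeping marked spots left the signal of EIF3I unchanged, so those alternatives could hardly differ.

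The other EIF3 subunits had smaller changes, mostly of the other sign. Of 12 tested subunits, 10 were higher in REST and 2, EIF3I and EIF3K, were lower. In cows 1 to 6 the change of EIF3I was -0.655, -0.639, -0.414, -0.909, -0.604 and -0.586. The median of the other 11 subunits was 0.171, 0.201, 0.070, 0.187, -0.074 and 0.045 in the same cows, and in no cow did any of the 11 reach as low a value as EIF3I. The subunits that sit beside EIF3I in the complex, EIF3B and EIF3G, changed by 0.035 ± 0.090 (adjusted p = 0.833) and 0.017 ± 0.075 (adjusted p = 0.905). Their 95% intervals, -0.170 to 0.239 and -0.153 to 0.188, do not reach into that of EIF3I, though the difference between subunits was not itself tested.

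EIF3M (NM_001035312), one of the subunits with a PCI domain that build the core of EIF3, rose. Its normalized signal was 1.60 to 2.27 in CONT (median 2.13) and 1.76 to 3.08 in REST (median 2.44), so the groups overlapped. The change was 0.371 ± 0.117 (adjusted p = 0.0854) and positive in all 6 cows, but it ran from 0.041 in cow 5 to 0.889 in cow 2, with slide means of 0.645, 0.364 and 0.103. Both probes of EIF3M passed the threshold. The call was lost when cow 1, 2, 3 or 4 was left out (adjusted p 0.171, 0.204, 0.114 and 0.206) and without the block (adjusted p = 0.358), and without slide 3 the change was 0.505 (adjusted p = 0.0594).

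The neighbouring core subunits EIF3E and EIF3H had changes of similar size that missed the threshold, but passed it in 9 and 8 of 20 alternatives, where EIF3M passed in 11 of 20. EIF3E changed by 0.403 ± 0.140 (adjusted p = 0.108) and EIF3H by 0.370 ± 0.129 (adjusted p = 0.110). EIF3H was higher in 6 of 6 cows and EIF3E in 4 of 6, and both had their largest values in cows 1 and 2 (0.707 and 0.900 for EIF3E, 0.714 and 0.868 for EIF3H). The second probe of EIF3E passed, with 0.387 and an adjusted p of 0.0823. EIF3L was higher in all 6 cows by a small amount, 0.180 ± 0.081 (adjusted p = 0.190). EIF3D, which can itself bind the cap of some mRNAs, varied most among the subunits, from -0.519 in cow 5 to 1.0 in cow 1 (mean 0.292 ± 0.177, adjusted p = 0.318). EIF3A, EIF3J, EIF3K and the EIF3C gene, which the reference names EIF3CL, lay between -0.020 and 0.120.

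EIF1AX (NM_001025329), which with EIF1 opens the mRNA channel of the small subunit for scanning, fell. It was the called member among the 4 tested factors of start codon selection and subunit joining, beside 16.2% of all genes. The normalized signal was 4.96 to 5.35 in CONT (median 5.21) and 4.82 to 4.96 in REST (median 4.92), so that the groups touched without overlapping. The change was -0.258 ± 0.085 (adjusted p = 0.0936), and it was lower in 6 of 6 cows, by as little as -0.039 in cow 6 and -0.064 in cow 3. All 3 of its probes passed the threshold, with changes from -0.266 to -0.250. The call was near the threshold and was lost in 12 of 20 alternatives, among them the fits without cow 1, 2, 3, 4 or 5 (adjusted p 0.204, 0.216, 0.107, 0.225 and 0.145), the fit without slide 3 (adjusted p = 0.123) and normexp, which gave -0.124 (adjusted p = 0.410). EIF1, EIF1B and EIF5, the partners that check the start codon and trigger GTP hydrolysis, changed by 0.076 ± 0.119, 0.007 ± 0.079 and 0.037 ± 0.089, and none of these passed the threshold.

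None of the 5 factors that deliver the initiator tRNA and none of the 4 EIF2B subunits passed on the probe of highest signal. These groups are too small to set against the 16.2% of all genes called. EIF2S1 (NM_175813), the EIF2 alpha subunit that the stress kinases phosphorylate, had a normalized signal of -0.448 to -0.049 in CONT (median -0.203) and -0.322 to 0.063 in REST (median -0.030). The groups overlapped, and the change was 0.159 ± 0.098 (adjusted p = 0.324, higher in 5 of 6 cows). EIF2S2, the beta subunit, changed by -0.138 ± 0.131 (adjusted p = 0.525) and EIF2S3, the gamma subunit that holds GTP, by 0.336 ± 0.144 (adjusted p = 0.172, past the threshold in 4 of 20 alternatives). The means of the 3 subunits of EIF2 therefore lay on both sides of 0, and none passed the threshold. The EIF2B subunits ranged from -0.022 (EIF2B1) to 0.137 (EIF2B4). Single dimmer probes did pass, -0.504 for EIF2B3 (adjusted p = 0.0994, its other 2 probes at 0.009 and -0.032) and 0.282 for EIF2B4 (adjusted p = 0.0691).

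The cap-binding and helicase group held 1 called gene among 8 tested, beside 16.2% of all genes. EIF4E2 (NM_001206416), also known as 4EHP, is a relative of EIF4E that binds the cap but not the scaffold EIF4G and so can keep an mRNA from being translated. Its normalized signal was 1.53 to 1.72 in CONT (median 1.63) and 1.20 to 1.49 in REST (median 1.29), without overlap between the groups. The change was -0.321 ± 0.079 (adjusted p = 0.0443), a 1.25-fold lower signal, and lower in 6 of 6 cows (-0.459 to -0.093). Slide means were -0.211, -0.388 and -0.362. Of 3 tested probes, 2 passed and the dimmest changed by -0.055. The call also held without the block (adjusted p = 0.0742), but not without cow 2 (0.121), without cow 4 (0.123), without slide 3 (0.107), with normexp (-0.186, adjusted p = 0.126) or with no filter on dim probes (0.155).

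EIF4E itself (NM_174310), the cap-binding protein that recruits ribosomes, had a normalized signal of 1.05 to 1.56 in CONT (median 1.43) and 1.25 to 1.54 in REST (median 1.39). The REST values lay within the CONT range. The change of 0.036 ± 0.107 (adjusted p = 0.856) had a 95% interval from -0.207 to 0.279, and it turned to -0.056 without cow 5. That interval shares the values from -0.207 to -0.141 with that of EIF4E2, whose interval ran from -0.50 to -0.141, and the difference between these genes was not tested.

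Around EIF4E, neither EIF4EBP1 nor any helicase factor passed the threshold. EIF4EBP1 (NM_001077893), the inhibitor that mTOR switches off, had a signal of 4.06 to 5.00 in CONT (median 4.41) and 4.09 to 4.85 in REST (median 4.51). The change was 0.788 in cow 1 and -0.498 in cow 5, with a mean of 0.054 ± 0.158 (adjusted p = 0.854), and it was higher in 3 cows and lower in 3. EIF4B and EIF4H, which stimulate the helicase EIF4A, changed by 0.427 ± 0.158 (adjusted p = 0.122) and 0.298 ± 0.139 (adjusted p = 0.203). For EIF4B, cows 1 and 2 on slide 1 had 0.881 and 1.07, cow 4 had 0.463, and the other 3 cows had -0.102 to 0.139. EIF4B passed the threshold in 5 of 20 alternatives and EIF4H in 3. The helicase genes EIF4A1 and EIF4A2 lay at -0.221 ± 0.141 and 0.069 ± 0.121, and EIF4A3, a helicase of the exon junction complex, at 0.139 ± 0.083. The 7 probes of EIF4G2, a scaffold without an EIF4E site, disagreed: 1 passed at -0.310 (adjusted p = 0.0830), 1 at 0.276 (adjusted p = 0.0872), and the brightest gave 0.148 (adjusted p = 0.272).

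**Figure D2:**
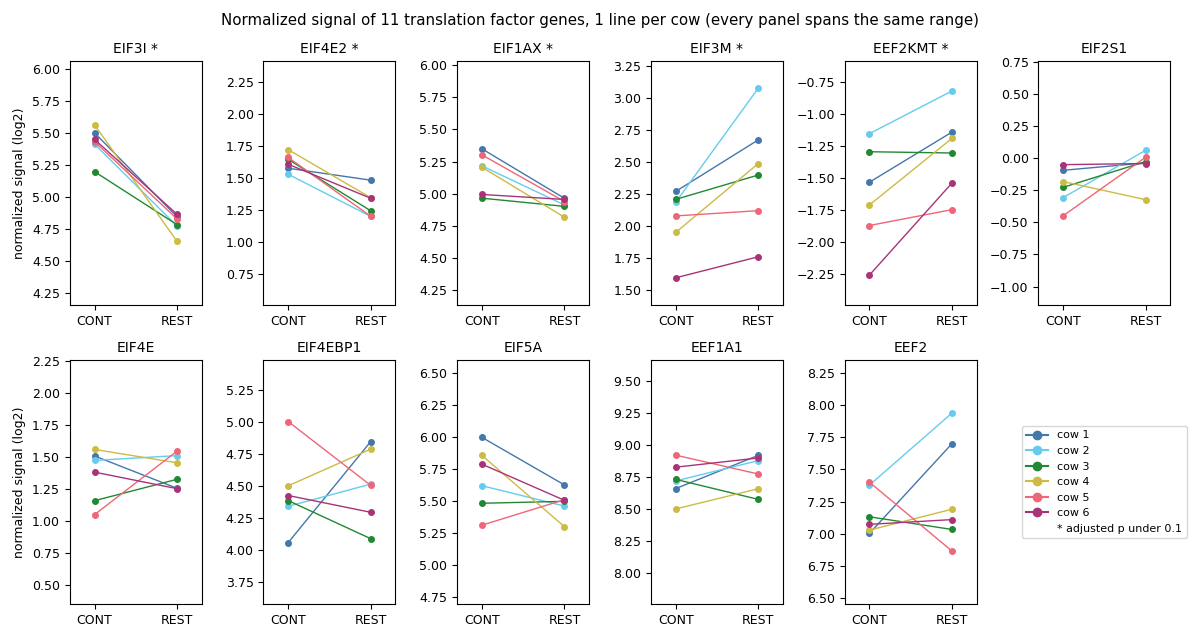
Normalized signal (log2, relative to the 75th percentile of the array) of 11 genes in CONT and REST, with 1 line per cow and panels of equal height. The lines of EIF3I, EIF4E2 and EIF1AX all go down with no overlap between groups, those of EIF3M all go up, and those of EIF4E, EIF4EBP1 and EEF2 go both ways.

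Of the factors that act after the first peptide bond or on the large subunit, EIF5A (NM_001003658), the hypusine-bearing factor that relieves stalled ribosomes, had a signal of 5.31 to 5.99 in CONT (median 5.70) and 5.30 to 5.62 in REST (median 5.50). The groups overlapped and the change was -0.193 ± 0.108 (adjusted p = 0.282, lower in 4 of 6 cows). EIF6, which keeps free large subunits from joining, had the tightest values of the family, 0.050 ± 0.074, with cow values from -0.027 to 0.197 and an SD of 0.089.

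All 5 tested elongation factors had a higher mean in REST, and none passed the threshold, beside 16.2% of all genes. With normexp 3 of the 5, EEF1B2, EEF1D and EEF1G, were called higher, beside 11.1% of all genes. EEF1B2 was also called without cow 5, without slide 3 and with trend and robust moderation, beside 17.1% and 16.4% of all genes called in either direction and 7.9% called higher. EEF1A1 (NM_174535), the tRNA carrier, had a signal of 8.50 to 8.92 in CONT (median 8.72) and 8.57 to 8.92 in REST (median 8.82), with a change of 0.057 ± 0.087 (adjusted p = 0.702). The other 9 of its 10 probes were also higher in REST, by up to 0.398, and the brightest probe, used here, gave the smallest change. EEF2 (NM_001075121), the translocase, had a signal of 7.0 to 7.40 in CONT (median 7.10) and 6.86 to 7.94 in REST (median 7.15). Its change was 0.138 ± 0.155 (adjusted p = 0.599), with 0.700 and 0.562 in cows 1 and 2 and -0.538 in cow 5. For both genes the groups overlapped. The EEF1B subunits EEF1B2, EEF1D and EEF1G changed by 0.241 ± 0.094 (adjusted p = 0.139), 0.163 ± 0.096 (adjusted p = 0.305) and 0.082 ± 0.081 (adjusted p = 0.543).

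Of the 4 enzymes that modify the elongation factors, 1 was called, beside 16.2% of all genes. EEF2KMT (NM_001163938), the lysine methyltransferase of EEF2, had a signal of -2.26 to -1.15 in CONT (median -1.62) and -1.75 to -0.819 in REST (median -1.25). It rose by 0.346 ± 0.106 (adjusted p = 0.0789), with overlapping groups, and was higher in 5 of 6 cows, the exception being cow 3 at -0.009. Its single probe was dim, and 1 CONT array was not well above background. The probe thus entered the test only through REST, the group where it was higher. Normexp gave a change of 0.084 (adjusted p = 0.543). The call was also lost without cow 1, 2, 4 or 6 (adjusted p 0.163, 0.176, 0.196 and 0.150), without slide 3 (0.133) and without the block (0.395). EEF1AKMT1, which methylates EEF1A, changed by -0.399 ± 0.142 (adjusted p = 0.113, past the threshold in 4 of 20 alternatives), and EEF1AKMT3 by -0.143 ± 0.132 (adjusted p = 0.517). EEF2K, the kinase that inhibits EEF2, changed by -0.146 ± 0.178 (adjusted p = 0.630) with cow values from -1.09 in cow 5 to 0.367 in cow 1 and the highest SD of the family, 0.536. It was higher in 4 of 6 cows, and without cow 5 its mean was 0.043. The remaining names matched by the rule, EEF1E1, a protein of the multi-tRNA synthetase complex, and EIF1AD, a protein with an EIF1A-like domain, changed by 0.080 ± 0.117 and -0.147 ± 0.112.

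Most genes were read by several probes, and these mostly gave the same sign. Of 38 genes with more than 1 tested probe, all tested probes had the same sign in 27, and called probes of opposite sign occurred in 1, EIF4G2. Of the 128 tested probes, 6 were called higher and 9 lower (11.7%), beside 16% of all tested probes. Counting a gene when any of its tested probes passed gave 9 of 47 genes, beside 20.5% of all genes. The genes added by this count were EIF2B3, EIF2B4, EIF3E and EIF4G2. Changes of the same sign in all 6 cows occurred in 6 of 47 genes (EIF3I, EIF4E2 and EIF1AX lower, EIF3H, EIF3L and EIF3M higher), beside 18.3% of all genes.

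**Figure D3:**
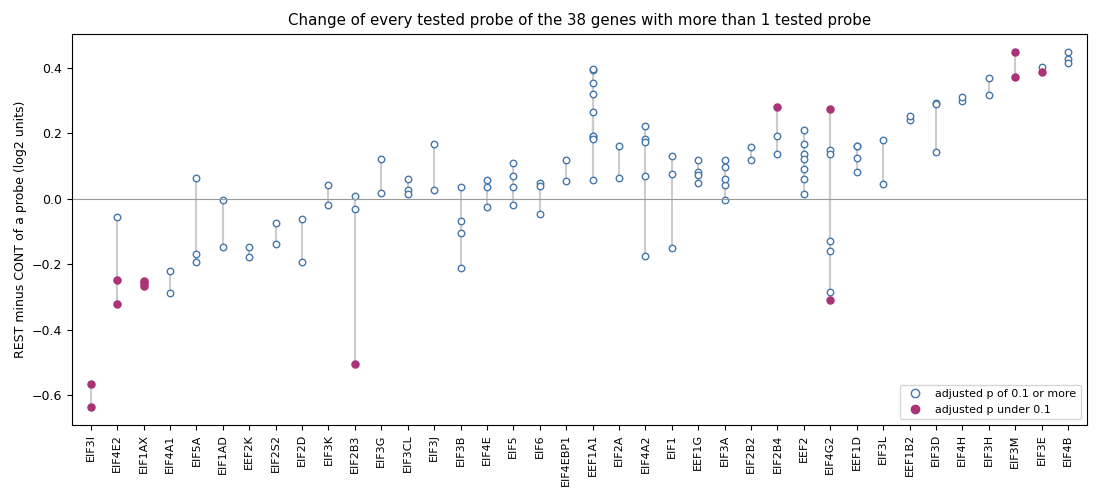
Change (REST minus CONT, log2 units) of every tested probe of the 38 genes with more than 1, 1 column per gene in order of the change of its brightest probe. Filled points have an adjusted p under 0.1. The 2 probes of EIF3I and the 3 of EIF1AX lie close together, the 10 of EEF1A1 all lie above 0, and those of EIF4G2 lie on both sides.

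Many mRNAs of the translation machinery begin with a 5′ terminal oligopyrimidine (TOP) tract, by which mTOR controls their translation. Of the family, 8 tested genes are on a list of such mRNAs: EEF1A1, EEF1B2, EEF1D, EEF1G, EEF2, EIF3E, EIF3H and EIF4B. All 8 had a higher mean in REST and none was called, with a median of 0.202, whereas the other 39 had 26 higher and 13 lower with a median of 0.036. The count of calls among the 8 depended on the setting: 6 (EEF1B2, EEF1D, EEF1G, EIF3E, EIF3H and EIF4B) were called higher with normexp, beside 11.1% of all genes. With quantile normalization 3 were called higher (EIF3E, EIF3H and EIF4B), beside 7.89% of all genes, and these 3 were also called with the cow as a random block, beside 7.9% of all genes. With trend and robust moderation EEF1B2 was called as well, 4 of 8, beside 7.9% of all genes. None of the 8 was called without the block, with the slide as block, with no filter on dim probes or with the methods' t-test. Leaving out cow 1, 2, 4 or 6 also gave no call among the 8. The median of the 8 genes was 0.606 and 0.535 in cows 1 and 2, -0.061 and 0.207 in cows 3 and 4, and -0.057 and 0.129 in cows 5 and 6. The values above 0.5 were thus those of the cows on slide 1. The median of all 47 members by cow was 0.171, 0.146, 0.070, 0.058, -0.052 and -0.006 (SD 0.086), and that of all genes lay between -0.053 and 0.008.

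Other genes of the translation machinery gave few calls outside the mitochondrial ribosome, and the medians of the cytosolic and mitochondrial lists had different signs. Of 79 tested cytosolic ribosomal proteins, whose mRNAs carry TOP tracts, 65 were higher and 14 lower, with a median of 0.081. Of these, 1 was called in each direction (2.5%), against 16.2% of all genes. Of 72 tested mitochondrial ribosomal proteins, 62 were lower, 13 (18.1%) were called lower, against the 9.27% of all genes called lower, and none higher, with a median of -0.115. Over both directions this share is near the 16.2% of all genes, and without the block 3 of the 72 were called, beside 4.41% of all genes. The 8 tested mitochondrial translation factors had 3 higher and 5 lower, no call and a median of -0.085. Of 21 aminoacyl-tRNA synthetases of the cytosol, which charge tRNAs, 15 were higher, with a median of 0.131. Of the 21, 1 was called (4.8%), against 16.2% of all genes. KARS1, the lysine enzyme, rose by 0.432 ± 0.118 (adjusted p = 0.0577, higher in 6 of 6 cows). In cow 6 the median of the synthetases was -0.439, against 0.041 to 0.386 in the other cows.

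**Figure D4:**
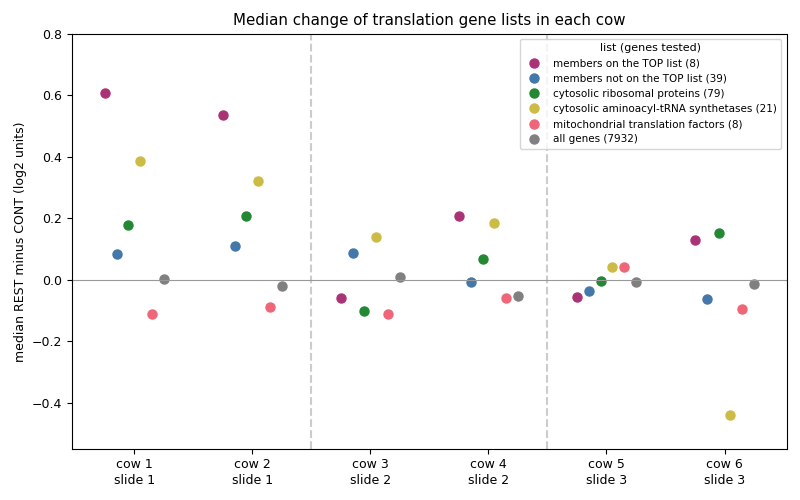
Median change (REST minus CONT, log2 units) of 5 gene lists and of all tested genes in each cow, with dashed lines between slides. The members on the TOP list reach 0.606 and 0.535 in cows 1 and 2 and lie between -0.061 and 0.207 in the other cows, while the median of all genes stays between -0.053 and 0.008.

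Regulators around the factors gave few calls, in lists too small to set against the 16.2% of all tested genes called. None of the 6 tested EIF2 alpha kinases and phosphatase subunits, which set the phosphorylation of EIF2S1, was called (2 higher, 4 lower), and none of the 5 S6 and MNK kinases, which act on the small subunit and on EIF4E (3 higher, 2 lower). Of 12 poly(A) binding proteins and other regulators on the mRNA side, 6 were higher and 6 lower, and CYFIP2, of the family of the EIF4E-binding protein CYFIP1, fell by 0.415 on the log2 scale (adjusted p = 0.0360, lower in 6 of 6 cows). Of 9 genes of reinitiation, termination and recycling, 7 were lower and 2 higher, and MCTS1, a reinitiation factor, fell by 0.333 on the log2 scale (adjusted p = 0.0501, lower in 6 of 6 cows). The 6 genes of hypusine synthesis and other modification of factors (2 higher, 4 lower) and the 2 of selenocysteine elongation (both lower) had no call. CYFIP2, MCTS1 and KARS1 had overlapping groups, and of the 3 only KARS1 passed without the block (adjusted p = 0.0905).

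Markers of the cell types in the biopsy were read on the same arrays. The summed signal of 12 luminal epithelial markers, on a linear scale relative to the 75th percentile, was 2211 to 2884 in CONT and 1833 to 2383 in REST. This sum was lower in REST in 6 of 6 cows. The most abundant markers carry such a sum, and gene by gene 6 of the 12 were higher and 6 lower, with a median change of -0.014. Of the 12, 3 were called higher, with the brightest probe of KRT8 at 0.715 ± 0.101 (adjusted p = 0.00891), and 1 was called lower. Over all tested genes 6.95% were called higher and 9.27% lower, the shares to set beside the counts of every marker list. Of the 3 tested probes of KRT8, 2 were higher and 1 lower, and without the block its adjusted p was 0.133. The sum of 8 myoepithelial markers was 121 to 224 in CONT and 112 to 213 in REST. It was higher in REST in 1 of 6 cows, with 1 gene called higher and 2 lower. Without the block no luminal or myoepithelial marker was called. The 7 endothelial markers summed to 12.7 to 17.5 in CONT and 14.8 to 17.8 in REST, higher in 5 of 6 cows, with 1 called higher. The 10 leukocyte markers summed to 21.5 to 30.6 and 26.2 to 33.9, higher in 4 of 6 cows, with 1 called higher, and the 8 fibroblast markers to 35.4 to 66.7 and 28.2 to 77.8, higher in 3 of 6 cows, with none called. Of 7 adipocyte markers on the array 1 was tested, at 2.91 to 12.4 in CONT and 6.80 to 9.07 in REST, with a change of 0.610 that was not called and a higher level in 5 of 6 cows. The part of cell composition in the changes of the translation factors was not tested.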

How the data were processed

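RNA of mammary biopsies was hybridised to bovine Agilent arrays, 4 to a slide on 3 slides, with both samples of a cow on the same slide. Per the file headers, the authors extracted spot values with Agilent Feature Extraction 11.0.1.1. The deposited scanner files hold a background-subtracted, detrended intensity for each spot on a linear scale, with no scaling between arrays, and the deposited table held the same intensity in all 45220 cells of each array. Here intensities were log2-transformed, repeat spots (50 probes) were averaged, the 75th percentile of the array was subtracted, and spots marked as non-uniform or as outliers (1 to 13 per array) were left out, none of them in a tested member gene. No spot was saturated. A probe was tested when well above background on every array of at least 1 group (19406 probes). Each gene is given by its tested probe of highest mean signal, and levels are not compared between probes.

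Probes were named through their RefSeq identifiers (62.2% of probes received a symbol). The reference and the array annotation use different bovine assemblies, so positions are not given. Probe sequences were not used here.

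REST was compared with CONT in limma 3.58.1 (R 4.3.3) with the cow as a fixed block, two-sided, with Benjamini-Hochberg adjustment over all tested probes and a threshold of 0.1. The ± values are SEs of this fit. Their variances are moderated across all tested probes, so they do not give the spread of the cow changes alone. The methods of the study do not name a block. The pairing comes from the animal names in the labels: deviations from the group means correlated at 0.356 to 0.574 between samples of the same cow and at -0.326 to 0.134 between cows. An exact sign test over 6 cows cannot give a p below 0.03125 and was not used. The fit was tested on simulated data. The alternatives were other blocks, scalings, background corrections, filters, moderation and probe rules, and leaving out each cow. Also counted were the deposited table values and keeping marked spots, which left the signal given for every tested member unchanged. Normexp used the median spot intensity with an offset of 50.

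Genes named in full were the called members and EIF2S1, EIF4E, EIF4EBP1, EIF5A, EEF1A1 and EEF2, and called genes of the other lists. Other members named are those singled out after their values were seen. The members, roles and lists were chosen with earlier results of these data known. The number of arrays limits the precision.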

Additional observations from a re-analysis of the deposited data

Results flagged for a closer look

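Among the 22 groups of 6 values (11 genes in CONT and in REST), 1 held an array far from the others. EIF2S1, the EIF2 alpha subunit, was at -0.322 in REST in cow 4, whereas the nearest other REST array was at -0.040, and this gap made up 0.733 of the range of the group, above the critical value of Dixon's test for 6 values. Chance flags about 1 in 20 groups. Cow 4 was the only cow in which EIF2S1 was lower in REST (-0.141).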

How the results depend on the processing

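The decrease of EIF3I passed the threshold in all 20 alternatives, with changes from -0.679 to -0.501. Using the deposited table or keeping marked spots changed no signal of the members named here, so those alternatives could hardly differ. For EEF2KMT, with its single probe, the same holds for averaging probes. The other 4 calls kept their direction but passed less often: EIF4E2 missed the threshold in 5 of 20 alternatives, EIF3M in 9 of 20, EIF1AX in 12 of 20 and EEF2KMT in 12 of 19 (it was not well above background on all 12 arrays, so that filter gave no value). Past the threshold were 3105 probes, against totals of 837 without the replicate block, 1899 with the slide as block, 3549 with the cow as a random replicate block, 3101 with quantile normalization, 3677 with normexp, 3515 with trend and robust moderation, 388 with no filter on dim probes, 723 with the methods' t-test (read here as a test without moderation or block, since their wording can also mean the moderated test without a block, which gave the 837) and 1044 to 3292 when each cow was left out. Members called higher numbered 2, against 0 without the replicate block, 4 with the cow as a random replicate block, 0 with the slide as block, 5 with quantile normalization, 14 with normexp, 0 with no filter, 5 with trend and robust moderation, 0 with the methods' t-test, 7 without slide 3, 5 with any tested probe and 0 to 8 when each cow was left out. Members called lower numbered 3, against 1 with no filter, 1 without slide 3, 5 with any tested probe and 1 to 4 when each cow was left out. The median of the members was 0.057, 0.162 with normexp, 0.103 with quantile normalization, 0.105 without slide 3 and 0.036 to 0.10 when each cow was left out. EIF4EBP1 turned to -0.093 without cow 1 and EIF4E to -0.056 without cow 5, in ranges of -0.093 to 0.164 and -0.056 to 0.094 when each cow was left out, and EIF4E was at -0.038 without slide 3. The cause of these differences was not tested. The other 4 genes named whatever their result kept their sign and were never called, but their sizes moved: EEF2 from 0.025 (without cow 1) to 0.332 (without slide 3), EEF1A1 from 0.017 (without cow 1) to 0.254 (probes averaged), EIF5A from -0.271 (without cow 5) to -0.052 (normexp) and EIF2S1 from 0.099 (without cow 5) to 0.219 (without cow 4). The dim arrays of slide 3 and the dim probe of EEF2KMT limit what can be said of the weakest signals. The median of all tested probes stayed within -0.009 to 0.011 under the scalings and background corrections.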
